A study of Mus musculus with 3 samples.

Results

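The 9 connexin genes *Gja1*, *Gjb1*, *Gjb2*, *Gjb6*, *Gjc1*, *Gjc3*, *Gja4*, *Gja5* and *Gjd2* were followed in single cells of the mouse dorsal root ganglion (DRG). They were chosen by gene symbol from the 20 connexin genes among the 31053 genes of the deposited count tables, and all 9 were found. Connexins (written Cx with their size) are membrane proteins that assemble into hemichannels, and hemichannels of neighbouring cells dock into gap junctions through which ions and small molecules pass. In sensory ganglia, gap junctions couple the satellite glial cells (SGCs) that wrap each neuronal cell body, and this coupling is studied as a part of SGC reactivity after nerve injury. In myelinating Schwann cells, Cx32 forms channels between the layers of a single myelin sheath, and in vessel walls Cx37, Cx40, Cx43 and Cx45 join endothelial and mural cells.

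Whole DRGs of levels L3 and L4 from both sides of male C57BL/6J mice aged 13 weeks were dissociated, and 3′ single-cell libraries were made. There was 1 library from naïve mice, 1 from mice at 7 days after spared nerve injury (SNI) of both hind legs and 1 from mice at 14 days, each a pool of 8 DRGs from 2 mice. No mice with sham surgery were among the groups. Because each condition was a single library, differences between conditions had no replicate check, and mice, day and library cannot be told apart.

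The libraries held 3748, 3281 and 4908 barcodes with 23107376, 22343246 and 36550911 unique molecular identifiers (UMIs), of which 3123, 2650 and 3799 cells were used. Between 1 and 6 barcodes were shared by any pair of libraries. Cells were assigned to classes by fixed marker genes that include no connexin, and 808 of the 9572 cells (8.44%) stayed unassigned. Naïve, day 7 and day 14 libraries gave 682, 387 and 498 SGC-like cells, 1345, 1152 and 1629 myelinating Schwann-like cells, and 296, 207 and 328 endothelial-like cells. The remaining classes were smaller, and 9 classes had enough cells in every library to be compared. Neuron-like cells differed most in depth, with a median of 75284 UMIs per cell in the naïve, 6034 in the day 7 and 80648.5 in the day 14 library. Levels are given as UMIs of the gene per 1000000 UMIs of the class (CPM), and intervals in square brackets are exact 95% intervals that cover counting error only. Free RNA gives stray UMIs in droplet data, so the immune-like cells were taken as the background class.

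On the mm10 (GRCm38) assembly, *Gja1* (ENSMUSG00000050953, Cx43) lies on chromosome 10 at 56377330 to 56402513, *Gjc3* (ENSMUSG00000056966, Cx29) on chromosome 5 at 137953461 to 137963098, and *Gjb1* (ENSMUSG00000047797, Cx32) on chromosome X at 101376378 to 101385629. *Gja4* (ENSMUSG00000050234, Cx37) lies on chromosome 4 at 127311421 to 127314039 and *Gjc1* (ENSMUSG00000034520, Cx45) on chromosome 11 at 102799579 to 102819700. *Gjb2* (ENSMUSG00000046352, Cx26) and *Gjb6* (ENSMUSG00000040055, Cx30) are near neighbours on chromosome 14, at 57098600 to 57104702 and 57123303 to 57133611, with the coding gene *Gm4491* between them. These 7 genes overlap no other annotated gene, whereas *Gja5* (ENSMUSG00000057123, Cx40; chromosome 3, 96904693 to 97077416) overlaps 4 genes on the other strand and *Gjd2* (ENSMUSG00000068615, Cx36; chromosome 2, 114009601 to 114013619) overlaps *A530058N18Rik*.

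The 250 bases before the transcription start are shown for 4 members with different class patterns: *Gja1* (SGC-like and endothelial-like cells), *Gjc3* (all glial classes), *Gjb1* (myelinating Schwann-like cells) and *Gja4* (vessel wall). The sequences are those of RefSeq on GRCm38.p6, 5′ to 3′ on the strand of the gene, and for *Gjb1* the entry is the start nearest to the end of the gene among 4 listed starts. Capitals mark a SOX-type motif, ACAAAG or ACAATG on either strand.
Gja1, chr10:56377050-56377299, plus strand: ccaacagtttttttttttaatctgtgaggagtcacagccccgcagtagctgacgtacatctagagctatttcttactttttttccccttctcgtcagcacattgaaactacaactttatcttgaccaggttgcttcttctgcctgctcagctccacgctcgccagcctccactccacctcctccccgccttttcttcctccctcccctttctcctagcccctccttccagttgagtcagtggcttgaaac
Gjc3, chr5:137963099-137963348, minus strand: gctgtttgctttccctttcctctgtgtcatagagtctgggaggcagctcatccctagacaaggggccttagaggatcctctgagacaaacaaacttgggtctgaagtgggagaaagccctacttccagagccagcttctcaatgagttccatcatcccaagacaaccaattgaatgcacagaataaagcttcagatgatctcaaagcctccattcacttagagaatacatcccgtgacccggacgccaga
Gjb1, chrX:101383482-101383731, plus strand: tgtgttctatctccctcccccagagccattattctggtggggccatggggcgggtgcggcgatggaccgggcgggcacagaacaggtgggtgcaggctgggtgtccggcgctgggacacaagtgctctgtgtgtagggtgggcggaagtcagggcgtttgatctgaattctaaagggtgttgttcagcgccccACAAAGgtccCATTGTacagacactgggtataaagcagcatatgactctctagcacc
Gja4, chr4:127314040-127314289, minus strand: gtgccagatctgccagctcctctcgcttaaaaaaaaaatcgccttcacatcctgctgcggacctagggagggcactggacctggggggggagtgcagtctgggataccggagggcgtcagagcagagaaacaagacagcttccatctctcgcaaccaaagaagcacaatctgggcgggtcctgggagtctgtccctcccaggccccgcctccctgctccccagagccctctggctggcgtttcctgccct
The *Gjb1* sequence held 2 SOX-type matches close to the start, and a TATAAA, whereas the sequences of *Gja1*, *Gjc3* and *Gja4* held no match to either motif. Of 11 entries for 8 members, 3 held a SOX-type match, against 25.2% of the 32851 mouse promoters of the same length, and TATAAA on either strand was in 12.4% of them. *Gjc1* had no entry. A match is a description of the letters only.

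The members divided the ganglion between them. Of the UMIs in assigned cells, SGC-like cells held 60.2% and endothelial-like cells 33.9% of those of *Gja1*, myelinating Schwann-like cells held 93.5% of those of *Gjb1*, and fibroblast-like cells held 96.5% of those of *Gjb6*. *Gjc3* was spread over the glia, with 59.9% of its UMIs in myelinating Schwann-like and 32.9% in SGC-like cells. The UMIs of *Gja4* lay in smooth muscle-like (41.9%), endothelial-like (39.1%) and pericyte-like cells (16.5%). Of 72 pairs of a member and a class, 24 pairs of 7 members had a share of cells with a UMI above the upper limit of the immune-like share in every library. With every cell thinned to 2000 UMIs this count was 15. The rule depends on depth. The unthinned pairs include *Gja1*, *Gjb1*, *Gjc1* and *Gjc3* in neuron-like cells, the deepest class in the naïve and day 14 libraries. The share of all genes that would meet this rule was not computed, so the count is not read as particular to connexins.

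**Figure D1:**
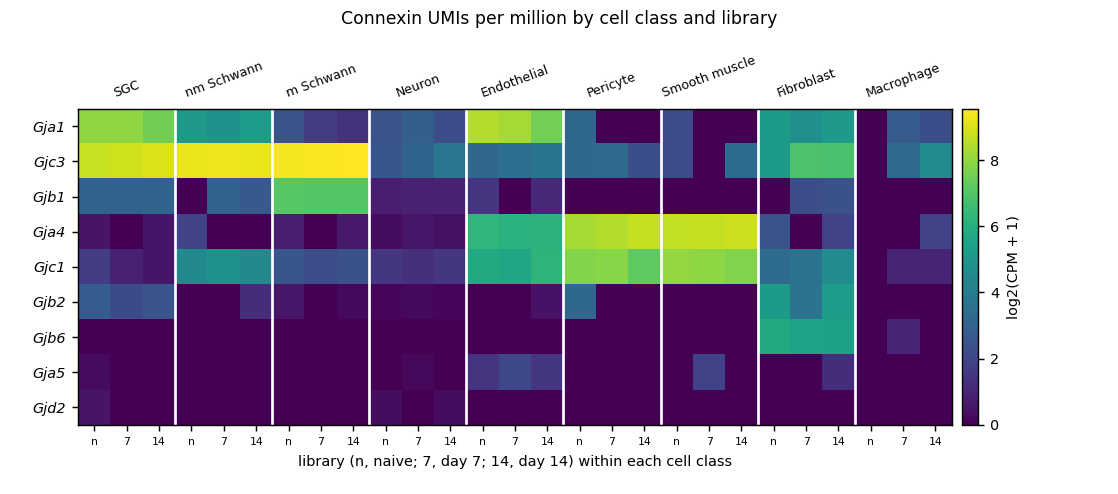
Level of each member as log2(CPM + 1), shown by colour, in 9 cell classes and the 3 libraries (n, naïve; 7, day 7; 14, day 14; nm, non-myelinating; m, myelinating). *Gja1* is bright in SGC-like and endothelial-like cells, *Gjc3* in the 3 glial classes, *Gjb1* in myelinating Schwann-like cells, *Gja4* and *Gjc1* in the vessel classes and *Gjb6* in fibroblast-like cells.

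Classes, unlike conditions, were measured in all 3 libraries, so differences between classes were tested with edgeR on UMI sums of class and library, with the library as a term and Benjamini-Hochberg adjustment over 12625 genes. *Gja5* and *Gjd2* had too few UMIs for the test. Of the 49 tests of the other 7 members over 7 pairs of classes, 25 passed, against 37.6% of all tests over all genes. *Gjb6* had no UMI in either class of any pair but SGC-like against fibroblast-like cells. Its tests in the other pairs could not pass, and they are counted here and below. Members passed in 5 of 7 tests of SGC-like against myelinating Schwann-like cells (48.7% of all genes), 2 of 7 against non-myelinating Schwann-like cells (19.6%) and 5 of 7 against fibroblast-like cells (38.5%). They passed in 4 of 7 tests of non-myelinating against myelinating Schwann-like cells (32.6%), 3 of 7 of endothelial-like against pericyte-like cells (29.6%), 2 of 7 of pericyte-like against smooth muscle-like cells (16%) and 4 of 7 of neuron-like against SGC-like cells (78.5%). The size of each difference is given gene by gene, in the order of the glial, fibroblast and vessel wall members. Folds given with a log2 difference come from the fit, which applies edgeR's normalization factors between the sums. They can thus differ from the ratio of the CPM printed beside them.

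*Gja1* encodes Cx43, the main connexin of astrocytes and a connexin of SGCs and endothelium. In SGC-like cells *Gja1* was at 247 CPM [233 to 261] in the naïve, 249 CPM [233 to 266] in the day 7 and 179 CPM [166 to 192] in the day 14 library. In endothelial-like cells the same libraries gave 353 CPM [326 to 382], 309 CPM [283 to 338] and 184 CPM [168 to 201]. The ranges of these 2 classes overlapped, and both stood above every other class large enough to compare. Non-myelinating Schwann-like cells were at 28.1 to 36.6 CPM and fibroblast-like cells at 26.5 to 36.1 CPM, ranges that overlapped each other. *Gja1* was 77.6-fold higher in SGC-like than in myelinating Schwann-like cells (log2 difference 6.28, SE 0.17, edgeR adjusted p = 7.99e-29) and 6.83-fold higher than in non-myelinating Schwann-like cells (log2 difference 2.77, SE 0.20, edgeR adjusted p = 7.04e-14), each time in 3 of 3 libraries. Endothelial-like cells stood above pericyte-like cells (edgeR adjusted p = 1.25e-14), in which a single UMI was counted over all libraries.

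A UMI of *Gja1* was found in 62.2%, 64.9% and 58.2% of SGC-like cells of the naïve, day 7 and day 14 libraries, at median depths of 5506, 7694 and 7679.5 UMIs. Immune-like cells had shares of 0%, 2.01% and 1.81%, at median depths of 2083.5, 3897 and 3273.5 UMIs, and the 0 of 106 cells in the naïve library allows a share of up to 2.83%. Thinned to 2000 UMIs, the SGC-like shares were 33.9%, 32.1% and 25.4%. Among the small classes, perineurial-like cells, 6, 7 and 14 in number, held 8, 4 and 8 UMIs of *Gja1*, or 385, 252 and 109 CPM.

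*Gjc3* encodes Cx29, a connexin of Schwann cells and other myelinating glia. In myelinating Schwann-like cells it was at 677, 715 and 749 CPM, in the order of naïve, day 7 and day 14 libraries; in non-myelinating Schwann-like cells it was at 622, 629 and 614 CPM. In SGC-like cells it was at 426 CPM [408 to 445], 463 CPM [441 to 486] and 535 CPM [513 to 557], so that the 3 glial classes held their order in every library without overlap. This order is one of class sums and does not hold for every SGC-like cluster described below. The *Egr3* cluster (848, 948 and 1021 CPM) and the *Rflna* cluster (704, 892 and 958 CPM) lay above the myelinating Schwann-like class in every library. The other SGC-like clusters lay below it. *Gjc3* was 1.59-fold lower in SGC-like than in myelinating Schwann-like cells (log2 difference -0.67, SE 0.11, edgeR adjusted p = 9.81e-07) and 1.36-fold lower in non-myelinating than in myelinating Schwann-like cells (log2 difference -0.45, SE 0.12, edgeR adjusted p = 0.00381). Neither difference passed the threshold with DESeq2, and the second also missed it without the day 7 library or without the library term. SGC-like and non-myelinating Schwann-like cells did not differ past the threshold. A UMI of *Gjc3* was found in 79.5%, 86.8% and 88.2% of SGC-like cells, against 0.943%, 4.42% and 7.23% of immune-like cells at the depths given above.

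*Gjb1* encodes Cx32, whose human gene is mutated in the X-linked form of Charcot-Marie-Tooth neuropathy. It was at 133 CPM [122 to 145], 126 CPM [116 to 137] and 126 CPM [117 to 135] in myelinating Schwann-like cells of the naïve, day 7 and day 14 libraries, and at 6.74 to 7.28 CPM in SGC-like cells. It was 18.9-fold lower in SGC-like (log2 difference -4.24, SE 0.14, edgeR adjusted p = 1.67e-23) and 33.9-fold lower in non-myelinating Schwann-like cells (log2 difference -5.08, SE 0.31, edgeR adjusted p = 2.18e-15) than in myelinating Schwann-like cells. Among the 4126 myelinating Schwann-like cells, 1300 had a UMI of *Gjb1* and 1139 of these also had a UMI of *Gjc3*, which was found in 3405 cells.

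*Gjb2* and *Gjb6* encode Cx26 and Cx30, which pair with each other in the supporting cells of the cochlea and are found in the leptomeninges. *Gjb6* was at 54.1 CPM [27.9 to 94.5], 45.4 CPM [23.5 to 79.3] and 42.8 CPM [29.1 to 60.7] in fibroblast-like cells, from 12, 12 and 31 UMIs. No *Gjb6* UMI was counted in SGC-like or myelinating Schwann-like cells. Against the level that 3 counts in a library would give, *Gjb6* was at least 86.7-fold, 53.9-fold and 62.9-fold higher in fibroblast-like than in SGC-like cells of the naïve, day 7 and day 14 libraries (edgeR adjusted p = 1.4e-10). This difference passed with edgeR and not with DESeq2. Of the fibroblast-like UMIs of *Gjb6*, 47 lay in the cluster led by *A2m*, *Lum* and *Cyp26b1*.

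*Gjb2* was at 36.1, 11.3 and 37.3 CPM in fibroblast-like cells, from 8, 3 and 27 UMIs, and 20 of the 27 UMIs at day 14 came from 1 cell. Of these 38 UMIs, 25 lay in 3 cells of the cluster led by *Lypd2*, *H19* and *Slc47a1*, and the 258 fibroblast-like cells of the *A2m* and *Lum* cluster held 13, at 18.9, 12.9 and 11.1 CPM. In SGC-like cells it was at 5.82, 3.37 and 4.76 CPM, from 28, 12 and 21 UMIs with no more than 2 in any cell. It was 5.96-fold lower in SGC-like than in fibroblast-like cells (log2 difference -2.58, SE 0.43, edgeR adjusted p = 5.69e-06) and 18.2-fold higher in SGC-like than in myelinating Schwann-like cells (log2 difference 4.19, SE 0.60, edgeR adjusted p = 2.73e-07). The 68 cells of the *Lypd2* cluster, fibroblast-like or not by the gate, held 34 *Gjb2* UMIs in 7 cells, of which 20 are those of the same day 14 cell, and 38 *Gja1* UMIs in 21 cells. *Gjb5*, encoding Cx31.1, was the most abundant of the 11 connexin genes outside the 9 members and lay in the same class, with 6, 7 and 34 UMIs or 26.5 to 46.9 CPM in fibroblast-like cells. Of 293 fibroblast-like cells, 13 had a UMI of *Gjb2*, 34 of *Gjb6* and 37 of *Gjb5*. UMIs of *Gjb2* and *Gjb6* were found together in 5 cells, of *Gjb6* and *Gjb5* in 3, and of *Gjb2* and *Gjb5* in 0. With so few cells neither overlap nor separation of these genes is read from the counts.

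*Gja4* and *Gjc1* encode Cx37 and Cx45, which are found in endothelium and vascular smooth muscle. *Gja4* was at 412 CPM [341 to 494], 422 CPM [357 to 496] and 457 CPM [396 to 525] in smooth muscle-like cells, at 318, 345 and 418 CPM in pericyte-like cells and at 76.1, 67.7 and 72.1 CPM in endothelial-like cells. *Gjc1* was at 252, 245 and 212 CPM in smooth muscle-like cells, at 218, 230 and 143 CPM in pericyte-like cells and at 55.1, 48.1 and 73.6 CPM in endothelial-like cells. In each library both genes were thus higher in the mural classes than in endothelial-like cells, and the ranges of pericyte-like and smooth muscle-like cells overlapped. Endothelial-like cells were 4.19-fold below pericyte-like cells for *Gja4* (log2 difference -2.07, SE 0.20, edgeR adjusted p = 3.31e-11) and 2.57-fold below them for *Gjc1* (log2 difference -1.36, SE 0.23, edgeR adjusted p = 8.85e-06).

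Pericyte-like cells were 1.5-fold below smooth muscle-like cells for *Gja4* (log2 difference -0.58, SE 0.19, edgeR adjusted p = 0.0309) and 1.6-fold below them for *Gjc1* (log2 difference -0.68, SE 0.23, edgeR adjusted p = 0.0343). Both differences were lost with DESeq2. That of *Gja4* was also lost without any single library, and that of *Gjc1* without the day 7 or the day 14 library. These 2 folds carry the normalization of the fit, and the ratio of plain CPM was smaller for both genes in every library. Of 146 smooth muscle-like cells with a *Gja4* UMI, 103 also had a *Gjc1* UMI. *Gjc1* was further seen in non-myelinating Schwann-like cells, at 22.4, 28.1 and 21.7 CPM, 16.2-fold above SGC-like cells (log2 difference of SGC-like over non-myelinating Schwann-like cells -4.02, SE 0.46, edgeR adjusted p = 7.7e-09) and 4.64-fold above myelinating Schwann-like cells (log2 difference 2.21, SE 0.38, edgeR adjusted p = 8.19e-06).

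**Figure D2:**
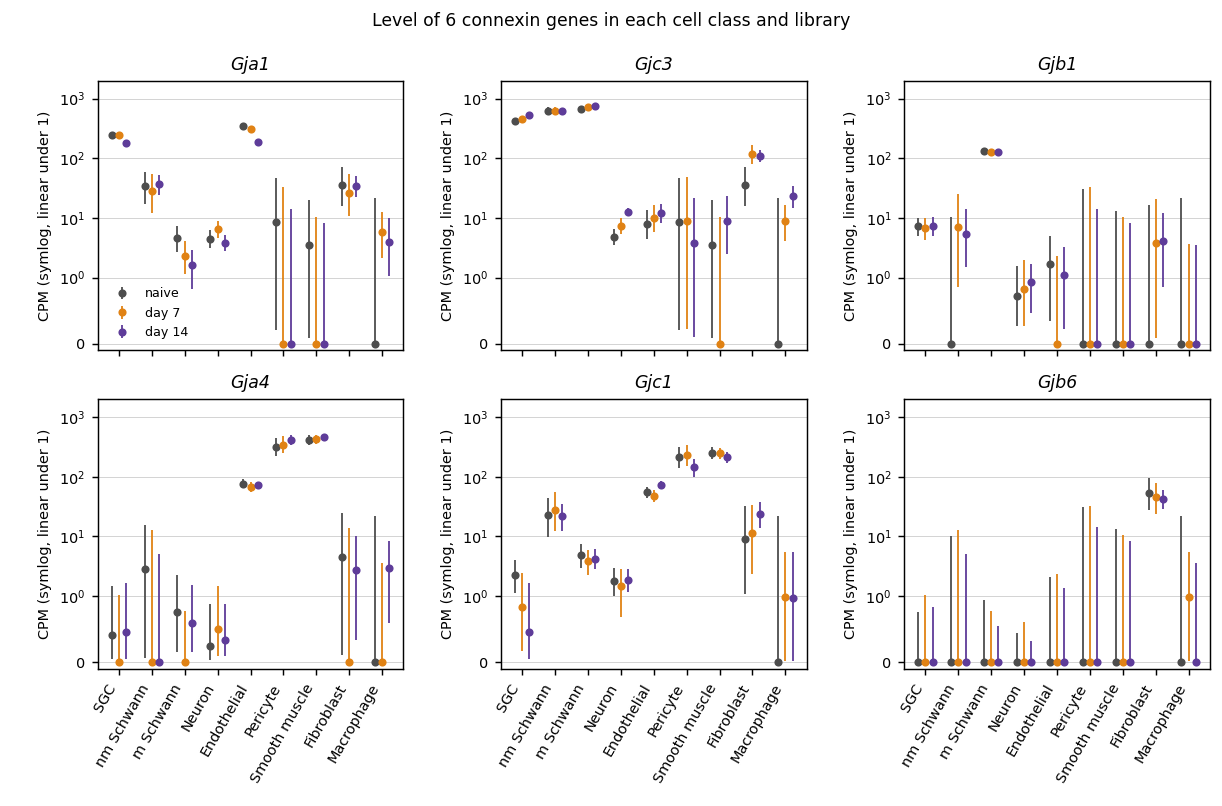
CPM of 6 members (points; bars are exact 95% Poisson intervals) in 9 classes, on an axis that is linear under 1 CPM and logarithmic above, with the naïve, day 7 and day 14 libraries in grey, orange and purple. For *Gja1*, *Gjc3*, *Gjb1* and *Gja4* the spread between libraries is small beside the difference between the highest and the lowest classes. Classes next to each other can overlap, such as SGC-like and endothelial-like cells for *Gja1*, and pericyte-like and smooth muscle-like cells for *Gja4*. *Gja1* at day 14 lies below the other libraries in SGC-like and endothelial-like cells.

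Neuron-like cells held little of any member. *Gja1* was at 4.49, 6.50 and 3.84 CPM there, 41.6-fold below SGC-like cells (log2 difference -5.38, SE 0.14, edgeR adjusted p = 4.7e-30), and *Gjb1* was at 0.729 to 0.939 CPM. *Gjd2*, which encodes Cx36, the main connexin of electrical synapses between neurons, had 2, 0 and 3 UMIs in 114, 113 and 126 neuron-like cells and 7 UMIs in the whole series. The 0 of 113 cells at day 7, which were far shallower than the neuron-like cells of the other libraries, allows a share of up to 2.65% of cells with a UMI at that depth. *Gja5*, encoding Cx40 of arterial endothelium, had 17 UMIs in all, of which 13 lay in endothelial-like cells, and was at 1.70, 3.16 and 1.83 CPM there. At this depth neither gene could be compared between conditions.

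The pannexins, which form channels of similar shape without being related to connexins by sequence, were mostly neuronal. *Panx1* was at 61.3, 83.2 and 79.2 CPM in neuron-like cells and at 9.15, 10.7 and 12.2 CPM in SGC-like cells, and the neuron-like level was 7.57-fold higher (log2 difference 2.92, SE 0.14, edgeR adjusted p = 2.74e-21). *Panx2* was at 53.4, 44.9 and 46.5 CPM in neuron-like cells and below 1 CPM in SGC-like cells. Of the 20 genes listed as related to connexins (11 other connexins, 3 pannexins and 6 scaffold and trafficking genes), 9 had enough UMIs for the test. Of these 9, SGC-like cells were higher than myelinating Schwann-like cells for 2 and lower for 4, and neuron-like cells were higher than SGC-like cells for 5 and lower for 2, where 48.7% and 78.5% of all genes passed. *Tjp1* (ZO-1), the scaffold that binds the tail of Cx43, was at 744, 837 and 765 CPM in endothelial-like cells and at 71.1, 63.7 and 66.0 CPM in SGC-like cells. *Nov* (CCN3), whose protein binds Cx43, was at 127, 141 and 151 CPM in myelinating Schwann-like cells, where *Gja1* was low.

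Over the 27 sums of class and library, the genes whose log2(CPM + 1) followed a member most closely were named by Pearson's r, with no test, since the points share libraries, depth and class. For *Gja1* these were *Hmcn1* (r = 0.925), *Bsg* (r = 0.914) and *Alpl* (r = 0.903), and for *Gjb1* they included *Gm36356* (r = 0.933) and *Fa2h* (r = 0.924). For *Gjc3* they included *Plekha4* (r = 0.961) and *Gpm6b* (r = 0.959). *Gja4* was followed by *Apold1* (r = 0.966) and *Tinagl1* (r = 0.966), and *Gjc1* by *Itpr1* (r = 0.941). Between members, *Gja4* and *Gjc1* had r = 0.889, *Gjb1* and *Gjc3* r = 0.752, and *Gja1* and *Gjc3* r = 0.418.

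Within the SGC-like class, the cluster with the highest *Gja1* had the lowest *Gjc3* in every library. Cells were also clustered without any connexin gene, and 5 clusters were SGC-like by their markers. The cluster led by *2900052N01Rik* and *Hes5*, of which 94.9% of cells were SGC-like by the marker gate, had the highest *Gja1*, at 342, 333 and 254 CPM in the naïve, day 7 and day 14 libraries. The cluster led by *Egr3*, *Pde10a* and *Ednrb* had *Gja1* at 119, 122 and 71.7 CPM, below the first cluster in every library. *Gjc3* was at 141, 139 and 175 CPM in the first and at 848, 948 and 1021 CPM in the second. In the *Bcan* and *Rlbp1* cluster *Gja1* was at 250, 224 and 160 CPM and *Gjc3* at 408, 454 and 518 CPM, between the 2 others.

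The *Rflna* and *Sox3* cluster, of which 43.1% of cells were SGC-like and 14.6% non-myelinating Schwann-like by the gate, had *Gja1* at 108, 133 and 93.3 CPM and *Gjc3* at 704, 892 and 958 CPM. The *Ifit3b* cluster, led by interferon-responsive genes, had *Gja1* at 196, 167 and 99.8 CPM and *Gjc3* at 393, 603 and 472 CPM. At day 14 these levels came from 11 and 52 UMIs in 22 cells. Its *Gja1* intervals overlapped those of the *Bcan* cluster in every library, so no order of the 2 clusters is read. The *Ifit3b* cluster made up 14.1%, 5.17% and 1.61% of SGC-like cells. *Gjb2* lay mostly in the *Hes5* cluster, with 22, 10 and 18 UMIs, and had 0, 0 and 1 UMIs in the *Rflna* cluster. Of 55 SGC-like cells with a *Gjb2* UMI, 52 also had a *Gja1* UMI, against 60.4% of SGC-like cells without one, and the cells with *Gjb2* were deeper (median of 12056 against 6550.5 UMIs). Clusters come from the cells described, so their differences were not tested.

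**Figure D3:**
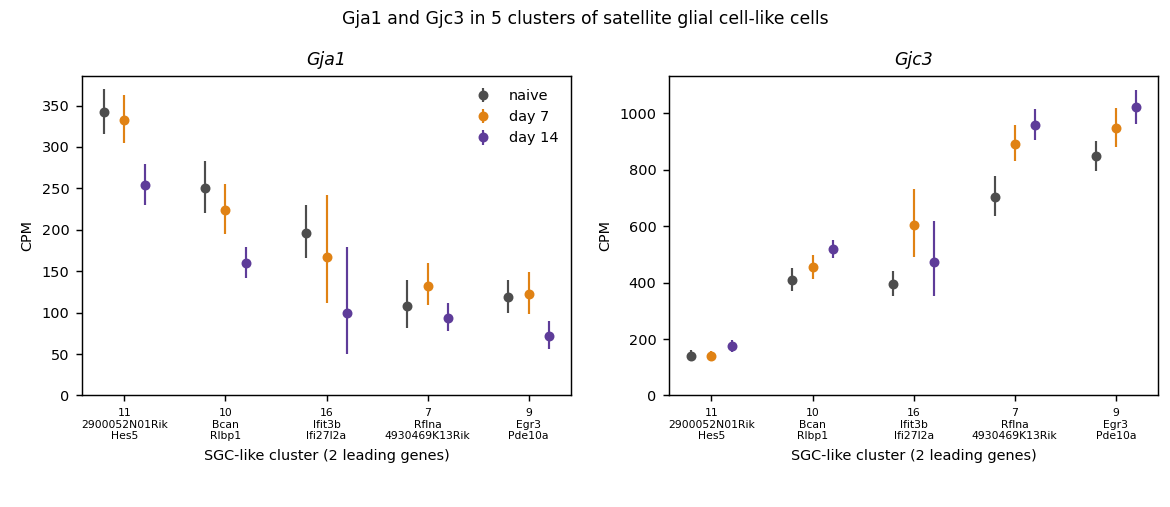
CPM of *Gja1* (left) and *Gjc3* (right) with exact 95% Poisson intervals in 5 SGC-like clusters, each named by 2 leading genes, in the naïve (grey), day 7 (orange) and day 14 (purple) libraries. *Gja1* is highest and *Gjc3* lowest in cluster 11 (*2900052N01Rik*, *Hes5*), and *Gja1* at day 14 is the lowest of the 3 libraries in every cluster.

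Among the 6 clusters of myelinating Schwann-like cells, some pairs differed in opposite directions for *Gjb1* and *Gjc3*. In the cluster led by *Lox*, *Plk5* and *Spp1*, *Gjb1* was at 228, 193 and 162 CPM and *Gjc3* at 489, 537 and 550 CPM. In the cluster led by *Mpp6*, *Gsdme* and *Csrp2*, *Gjb1* was at 72.8, 81.6 and 84.0 CPM and *Gjc3* at 1048, 1129 and 1219 CPM. The intervals of the 2 clusters did not overlap for either gene in any library. The cluster led by *Mfap5* and *Pdzph1* differed from the *Mpp6* cluster in the same way, again without overlap of the intervals. It had *Gjb1* at 146, 129 and 134 CPM and *Gjc3* at 531, 553 and 559 CPM. Not every pair of clusters showed this. The cluster led by *Otop1* and *Spock3* had *Gjb1* at 131 CPM and *Gjc3* at 764 CPM in the naïve library. The cluster led by *Fam81a* and *Ctnna3* had 87.1 and 714 CPM there, with intervals that overlapped for both genes. The *Gjc3* intervals of these clusters also overlapped at day 7 and day 14. Those of *Gjb1* did not, with the *Otop1* cluster higher at day 7 (124 against 61.3 CPM) and at day 14 (135 against 84.5 CPM).

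The comparison after nerve injury asked whether connexin levels within a class differed from the naïve library. A pair of a gene and a class counted as different where CPM differed at least 2-fold with at least 20 UMIs over both libraries. At day 7, 1 of 23 pairs of a member and a class met this, against 5.21% of all pairs over all genes, and at day 14 it was 3 of 27, against 7.06%. The interval of the ratio left out no difference in 4 of 23 pairs at day 7 (15.6% of all pairs) and in 8 of 27 at day 14 (21.1%). The connexins thus stood near the background in number.

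*Gja1* in endothelial-like cells had the largest distance from the naïve level among compared pairs with over 500 UMIs. At day 14 it was 1.92-fold below naïve (log2 ratio -0.94 [-1.11 to -0.77]) and at day 7 it was 1.14-fold below (log2 ratio -0.19 [-0.36 to -0.02]). Of 10431 genes compared in endothelial-like cells at day 14, 1.99% were lower by as much or more. In SGC-like cells *Gja1* was 1.38-fold below naïve at day 14 (log2 ratio -0.47 [-0.60 to -0.33]), where 6.86% of 11433 genes were lower by as much or more, and at day 7 the level did not differ from naïve beyond counting error (log2 ratio 0.01). In each of the 5 SGC-like clusters *Gja1* was lower at day 14, with log2 ratios from -0.97 to -0.21, and the interval included 0 in the *Rflna* cluster only. The limit of 20% mitochondrial UMIs removed 149, 140 and 220 SGC-like cells of the naïve, day 7 and day 14 libraries, and with no limit 1 pair at day 7 and 3 at day 14 met the 2-fold rule.

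*Gjc3* went the other way in SGC-like cells, 1.25-fold above naïve at day 14 (log2 ratio 0.33 [0.24 to 0.41]), where 16.9% of genes were higher by as much or more. In the 5 SGC-like clusters its log2 ratio at day 14 lay between 0.26 and 0.44, and the interval included 0 in the *Ifit3b* cluster only. In myelinating Schwann-like cells *Gjc3* was 1.11-fold above naïve (log2 ratio 0.15 [0.08 to 0.21]), and *Gjb1* did not differ beyond counting error at either day. With no mitochondrial limit the log2 ratio of *Gjc3* in SGC-like cells at day 14 was 0.22.

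*Gjc3* in fibroblast-like cells was at 36.1 CPM [15.6 to 71.0] in the naïve, 117 CPM [79.7 to 166] in the day 7 and 110 CPM [87.6 to 137] in the day 14 library, 3.25-fold (log2 ratio 1.70 [0.55 to 3.03]) and 3.06-fold (log2 ratio 1.61 [0.57 to 2.88]) above naïve. Summed myelinating Schwann markers in the same cells were at 599, 1486 and 1292 CPM. At day 7 they were at 3699 CPM in the 16 fibroblast-like cells with a *Gjc3* UMI and at 493 CPM in the 46 without, and at day 14 at 3086 CPM in 33 cells and 422 CPM in 123. In the naïve library the order was the other way, at 286 CPM in 6 cells with a *Gjc3* UMI and 621 CPM in 69 without. SGC markers at day 14 were at 1624 CPM in the cells with a *Gjc3* UMI and at 139 CPM in those without, and the former were deeper, with a median of 6276 against 3241 UMIs. The part of Schwann and SGC RNA and of depth in this result was not tested.

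In neuron-like cells *Gjc3* was at 4.86, 7.34 and 12.5 CPM, 2.58-fold above naïve at day 14 (log2 ratio 1.37 [0.86 to 1.91]). The level stayed below 21.4 CPM, the *Gjc3* level of immune-like cells at day 14, where 3.99 and 10.4 CPM were seen in the naïve and day 7 libraries. SGC markers in neuron-like cells summed to 242, 404 and 396 CPM. *Gjc3* in macrophage-like cells moved alike, with 0, 9 and 24 UMIs. In CPM the neuron-like level lay above the immune-like level in the naïve library and below it at day 7 and day 14. The share of neuron-like cells with a *Gjc3* UMI was above the immune-like share in every library, but neuron-like cells were deeper. The part of free RNA in these values was not tested.

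*Gja1* in myelinating Schwann-like cells was at 4.57, 2.32 and 1.65 CPM, from 18, 11 and 11 UMIs, 2.77-fold below naïve at day 14 (log2 ratio -1.47 [-2.70 to -0.31]). The day 14 level lay below the 4.75 CPM of immune-like cells in that library. In the naïve library no *Gja1* UMI was counted in the immune-like cells, which were few. The part of free RNA in this difference was not tested. The vessel wall members did not meet the rule in any whole class. *Gja4* differed by less than counting error in smooth muscle-like, pericyte-like and endothelial-like cells at both days, and *Gjc1* was 1.34-fold above naïve in endothelial-like cells at day 14 (log2 ratio 0.42 [0.06 to 0.78]).

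**Figure D4:**
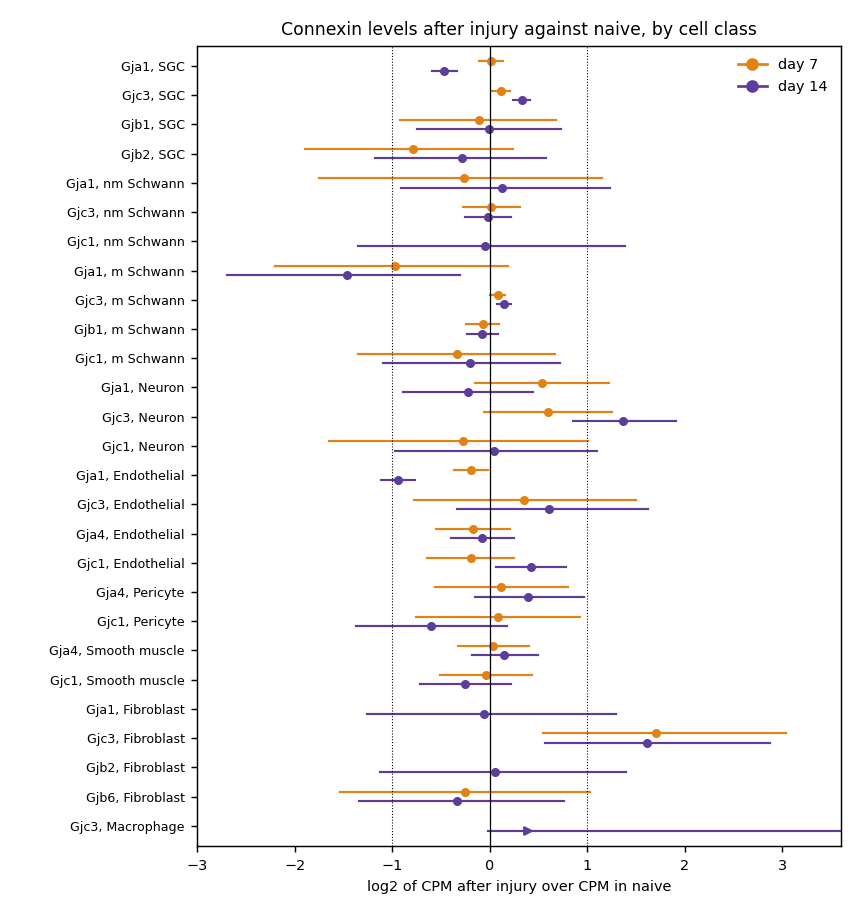
Log2 ratio of CPM after injury over CPM in the naïve library for each member and class with at least 20 UMIs, at day 7 (orange) and day 14 (purple), with exact 95% intervals; dotted lines mark 2-fold and a triangle marks a lower bound against a count of 0. Most intervals cross 0, *Gja1* at day 14 lies left of 0 in SGC-like and endothelial-like cells, and *Gjc3* lies right of the 2-fold line in fibroblast-like cells.

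The level of *Gja4* in the whole endothelial-like class hid a difference between its clusters, which was noticed after the values were seen. In the cluster led by *Car4* and *Gpihbp1*, genes of capillary endothelium, *Gja4* was at 42.5, 18.4 and 11.8 CPM in the naïve, day 7 and day 14 libraries, from 62, 22 and 23 UMIs. Against naïve the log2 ratio was -1.21 [-1.98 to -0.49] at day 7 and -1.85 [-2.61 to -1.14] at day 14, and 0.959% of 9386 genes and 0.232% of 9924 genes in this cluster were lower by as much or more. In the cluster led by *Dkk2* and *Vegfc* it was at 286, 237 and 228 CPM, and the ratio to naïve did not leave 0 (log2 ratio -0.33 [-0.73 to 0.09] at day 14). This second cluster held 14.5% [10.7 to 19.1], 23.7% [18.1 to 30.1] and 23.8% [19.3 to 28.8] of endothelial-like cells.

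Summed over 6 fixed arterial endothelial markers, the *Dkk2* cluster was at 1560, 1731 and 1505 CPM and the *Car4* cluster at 437, 442 and 385 CPM. Smooth muscle markers in the *Car4* cluster summed to 21.9, 24.2 and 36.0 CPM and pericyte markers to 76.8, 68.5 and 64.7 CPM. The part of mural RNA, and of how cells fell into the clusters, in the lower *Gja4* of this cluster was not tested. *Gja4* was 6.74-fold higher in the *Dkk2* than in the *Car4* cluster in the naïve [4.73 to 9.62], 12.9-fold at day 7 [8.01 to 21.7] and 19.3-fold at day 14 [12.4 to 31.2]. *Gja1* did not separate the clusters, with 352 against 426 CPM in the naïve and 179 against 203 CPM in the day 14 library, and it was lower at day 14 in both (log2 ratios -0.98 and -1.07). *Gjc1* was at 54.9, 45.9 and 79.6 CPM in the *Car4* cluster (log2 ratio 0.54 [0.14 to 0.95] at day 14). In the *Dkk2* cluster it was at 67.6, 58.6 and 61.6 CPM (log2 ratio -0.14 [-0.96 to 0.76] at day 14). Of 13 endothelial-like UMIs of *Gja5*, 10 lay in the *Dkk2* cluster.

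**Figure D5:**
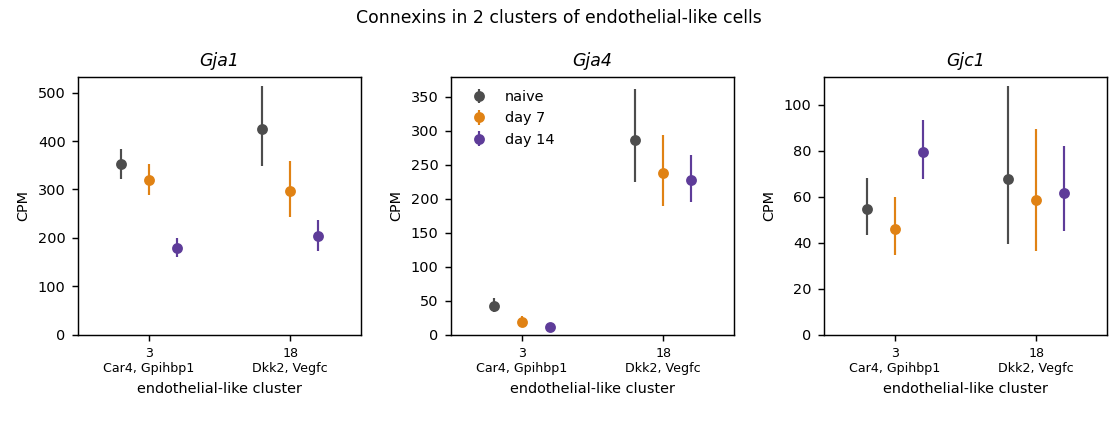
CPM of *Gja1*, *Gja4* and *Gjc1* with exact 95% Poisson intervals in the *Car4* (3) and *Dkk2* (18) clusters of endothelial-like cells, by library. *Gja4* is low in cluster 3, where the day 14 level of 11.8 CPM is below the naïve 42.5 CPM, while *Gja1* is lowest at day 14 in both clusters.

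For the 20 related genes, 2 of 38 pairs of a gene and a class met the 2-fold rule at day 7, against 5.21% of all pairs, and 1 of 41 at day 14, against 7.06%. *Dbn1*, encoding the actin-binding protein drebrin, which binds Cx43, had 5, 15 and 25 UMIs in non-myelinating Schwann-like cells of the naïve, day 7 and day 14 libraries (log2 ratio 1.91 [0.38 to 3.72] at day 7 and 1.27 [-0.14 to 3.02] at day 14). *Nedd4*, encoding a ubiquitin ligase that acts on Cx43, had 8 UMIs in naïve and 19 in day 7 macrophage-like cells (log2 ratio -1.35 [-2.61 to 0.05]). The last 2 of these intervals included 0.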

How the data were processed

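Per the labels, single-cell libraries were made from DRGs of 1 pool of 2 mice per condition. The authors deposited raw UMI counts per gene and cell (3′ chemistry), made with Cell Ranger 3.0.2 on mm10 according to the submitters' processing notes, so a value counts molecules near the 3′ end and is not scaled by gene length. Barcodes under 500 genes or over 20% mitochondrial UMIs were left out, and 90 of 9662 (0.931%) called by Scrublet were removed. Each cell took the class whose fixed markers scored highest, and 776 cells lay within 0.05 of the margin. Gate thresholds and the naming of the 32 Leiden clusters were set after marker levels were seen. Classes were compared by edgeR 4.0.16 quasi-likelihood tests on UMI sums (R 4.3.3), with library as a block; sums of 1 library share mice and preparation. Conditions had no test; CPM took exact Poisson, shares Clopper-Pearson and ratios exact binomial intervals, and a count of 0 was set to 3 counts. The steps were tested on simulated data. All 9 members were named, and related genes where they led their group or met a rule. Members and lists were chosen with earlier results of these data known. Of the feature IDs, 30934 of 31053 matched the GENCODE annotation used for positions. Scanpy 1.11.5 and DESeq2 1.42.0 (an alternative) were used. Some of the genes most like a member are not reported here.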

Additional observations from a re-analysis of the deposited data

How the results depend on the processing

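No paired analysis was possible because a single library stands for each condition. For the class tests, in which the library is the block, fits without it gave 24 of 49 tests past the threshold in place of 25, DESeq2 gave 21, and leaving out a library gave 20 to 25. The 20 came without the day 14 library, where *Gjb2* had too few UMIs and 42 tests could be run. Stricter cell limits (1000 genes, 10% mitochondrial UMIs) left 112, 11 and 7 SGC-like and 6, 6 and 5 smooth muscle-like cells, too few for these classes, so that 12 tests could be run, of which 6 passed. With the 2-fold rule set to 1.5-fold, the pairs that differed from naïve became 4 at day 7 and 6 at day 14. With no minimum number of UMIs they became 5 and 7. At day 7 they became 2 with doublets kept and 4 with clusters in place of gated classes. The 24 pairs with a share of cells above immune-like cells became 15 with cells thinned to 2000 UMIs and 15 where at least 2 UMIs were required. No result that had passed the threshold or the 2-fold rule reversed under any of these alternatives. A difference short of the rule could change sign. *Gjc1* in endothelial-like cells at day 14 had a log2 ratio of 0.42 in the class and -0.14 [-0.96 to 0.76] in the *Dkk2* cluster. Runs with no mitochondrial limit, without the neuron-like class or in single clusters were added after seeing the data. Depth limits *Gja5*, *Gjd2* and the small classes.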
